A study of Mus musculus with 16 samples.

Results

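Myelin, the lipid-rich wrapping that oligodendrocytes lay around axons, was followed in the dentate gyrus through 9 genes of mature oligodendrocytes: Mbp, Mog, Mag, Mobp, Cnp, Cldn11, Mal, Opalin and Ermn. They were taken as the rows of the gene abundance tables whose gene name is one of these symbols, 9 of the 24421 gene names listed, and each had 1 entry in all 16 tables. All 9 passed the filter on low values. Levels are given in TPM, a unit of transcript abundance in which reads are divided by transcript length and every library sums to the same total.

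The libraries came from the dentate gyrus, the part of the hippocampus that holds granule neurons and a niche of neural stem cells, of one-year-old male C57BL/6 mice. The mice were p16Ink4a +/+ (p16 WT) or p16Ink4a -/- (p16 KO), and were sedentary (CTL) or had a running wheel for 12 days (RUN). Each of the resulting groups had 4 libraries, numbered by their labels: 1 to 4 in sedentary wild-type mice (WT CTL), 5 to 8 in sedentary knockouts (KO CTL), 9 to 12 in wild-type runners (WT RUN) and 13 to 16 in knockout runners (KO RUN). Each library was made from the pooled tissue of a pair of mice. The null p16Ink4a allele leaves p19Arf, the other product of the locus, functional, is present in every cell of the animal, and was bred to C57BL/6 from FVB, which can leave FVB sequence near the locus in the KO groups. The pairwise comparisons were Set A (KO RUN against KO CTL), Set B (KO CTL against WT CTL), Set C (WT RUN against WT CTL), Set D (KO RUN against WT CTL) and Set E (KO RUN against WT RUN). Sets that name the same group share its libraries and are not independent of each other.

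Oligodendrocytes arise from precursor cells, pass through a newly formed stage and then express large amounts of myelin messenger RNA. Mbp, Mobp and Mal encode proteins of compact myelin, Cldn11 encodes the tight junction protein of the myelin sheath, Mog and Mag encode adhesion proteins of its outer and innermost surface, and Cnp, Ermn and Opalin encode proteins of the cytoplasmic channels, the actin skeleton and the paranodal loops. Part of the Mbp message is carried into the processes of the cell and translated there. In the hippocampus, myelin lies mainly in the alveus, the fimbria, the stratum lacunosum-moleculare and the hilus, so that a dissection of the dentate gyrus holds some of it along its borders.

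In mm10, the build of the tables, Mog lies at chr17:37010740-37023398, Mag at chr7:30899183-30914832, Mobp at chr9:120149742-120176091, Cnp at chr11:100574939-100581739 and Cldn11 at chr3:31149920-31164326. Mal at chr2:127633226-127656695 and Ermn at chr2:58045115-58052752 share a chromosome, and Opalin lies at chr19:41063420-41077113. The values are for the whole gene and do not separate its transcripts.

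Promoter sequence is shown for Mobp, Cnp, Mal and Opalin, members that were lower in running than in sedentary KO mice at an unadjusted p under 0.05, and for Ermn, which did not pass. RefSeq promoters in GRCm38.p6 matched 8 of the 9 members, all but Mbp. The windows run 5′ to 3′ from 250 to 51 bases before the annotated start, on the strand of the gene, and hold no annotated exon. Capitals mark the letters ACAAAG (the core of the motif bound by SOX factors such as Sox10) and CTGGNAC (the core bound by Myrf), each searched on both strands; the end of the latter can share letters with the start of the former.
Mobp, chr9:120149492-120149691, plus strand: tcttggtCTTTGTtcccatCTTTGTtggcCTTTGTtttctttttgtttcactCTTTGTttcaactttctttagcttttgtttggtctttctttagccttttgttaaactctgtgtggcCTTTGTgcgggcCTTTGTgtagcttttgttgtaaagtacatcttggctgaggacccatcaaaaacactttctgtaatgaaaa
Cnp, chr11:100574689-100574888, plus strand: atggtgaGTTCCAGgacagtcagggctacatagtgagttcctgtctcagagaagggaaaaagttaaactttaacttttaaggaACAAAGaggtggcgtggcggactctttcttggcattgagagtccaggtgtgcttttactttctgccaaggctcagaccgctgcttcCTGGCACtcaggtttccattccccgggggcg
Mal, chr2:127656746-127656945, minus strand: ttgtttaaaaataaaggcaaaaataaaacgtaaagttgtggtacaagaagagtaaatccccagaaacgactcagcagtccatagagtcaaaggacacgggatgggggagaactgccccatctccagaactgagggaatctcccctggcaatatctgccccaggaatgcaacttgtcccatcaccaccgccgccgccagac
Opalin, chr19:41077164-41077363, minus strand: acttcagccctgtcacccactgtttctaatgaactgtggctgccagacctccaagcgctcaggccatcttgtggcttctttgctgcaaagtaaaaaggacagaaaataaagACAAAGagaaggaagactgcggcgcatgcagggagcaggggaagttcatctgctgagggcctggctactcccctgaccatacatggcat
Ermn, chr2:58052915-58053114, minus strand: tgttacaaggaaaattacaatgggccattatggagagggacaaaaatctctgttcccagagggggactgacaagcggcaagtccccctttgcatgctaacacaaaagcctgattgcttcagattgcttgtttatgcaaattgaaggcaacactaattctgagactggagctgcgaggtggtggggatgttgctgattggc
ACAAAG was found for 4 of the 8 genes, Mag, Mobp, Cnp and Opalin. It occurs in 13.6% of the 32851 windows of this length in the table, where a gene with several starts has several windows. Mobp held 6 copies of it. CTGGNAC was found for 3 of the 8, Mag, Cnp and Mog, and occurs in 13.2% of all windows. The windows of Mal, Ermn and Cldn11 held neither. Mag was counted over the windows of its 3 annotated starts and the other matched members over 1 each. A match in so short a window is a description of the letters only.

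The tables hold no read counts. Their coverage was compared as the median over genes of the ratio to the geometric mean of the libraries. Relative to the median of all 16 libraries it ranged from 0.692 to 2.16, with WT CTL 2 (2.16) and KO CTL 7 (1.85) the highest. Cdkn2a, the targeted locus, reached at most 0.586 TPM in WT CTL, 0.344 in KO CTL, 0.475 in WT RUN and 0.413 in KO RUN. Each group also had libraries at 0. Its single entry covers p16Ink4a and p19Arf alike, so it could not check the genotype labels. Several sedentary libraries stood apart before any comparison. WT CTL 2, KO CTL 7 and KO CTL 8 were the lowest in a list of 10 granule neuron markers, WT CTL 2, KO CTL 6 and KO CTL 7 were the lowest in a list of 8 nuclear long noncoding RNAs, KO CTL 8 had the highest mean log2 deviation in CA1 and CA2 markers, though not the highest sum of their TPM, and KO CTL 7 in the choroid plexus gene Ttr (191 TPM). Counts and medians of the myelin genes in Sets A and B and in the interaction are therefore also given without the low libraries.

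In TPM, Mbp was the most abundant of the 9, with a mean of 944 TPM over the 16 libraries. Cnp (138 TPM) and Mobp (77.3 TPM) followed, and this order of the first 3 held in 16 of 16 libraries. Cldn11, Mal and Mag formed a middle group with means of 52.7, 52.7 and 47.8 TPM. Cldn11 was above Mal in only 6 of 16 libraries, so their order is not settled by these data. Ermn (23.4 TPM), Mog (20.3 TPM) and Opalin (17.7 TPM) were the lowest, Ermn being above Mog in 12 of 16 libraries and Mog above Opalin in 15 of 16. In TPM the level of Mbp was 53.3 times that of Opalin. Together the 9 genes made up 0.0901% to 0.217% of all TPM in a library, and Mbp alone was 63.9% to 73.7% of their sum in this unit. The deposited coverage gave another order. FPKM per unit of coverage was 7.55 to 8.41 times as high for Mbp as for Mog, 1.62 to 1.98 times for Mobp and about 1.13 times for Cnp. By coverage, Cnp was above Mbp in 12 of 16 libraries, Mobp was above Cldn11 in only 2 of 16, Mbp had a median of 6.57 times the value of Opalin, and Mbp was 19.7% to 27.8% of the sum. The order of Mbp, Cnp and Mobp among the 9 therefore depends on the unit.

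Mbp encodes myelin basic protein, which holds the cytoplasmic faces of the compact sheath together. In mm10 it lies at chr18:82475123-82585637 on the plus strand, a span of 110515 bases that covers the Golli transcripts as well as the classic myelin forms, and the tables do not separate these isoforms. Its levels in WT CTL 1 to 4 were 965, 1359.8, 731 and 589 TPM, and in KO CTL 5 to 8 they were 917, 1018, 1502 and 1539.9 TPM. In WT RUN 9 to 12 they were 782, 1014, 739 and 862 TPM, and in KO RUN 13 to 16 they were 732, 789, 906 and 665 TPM. Every KO RUN library lay below every KO CTL library, whereas the other groups overlapped. The group means were 911 ± 337 TPM in WT CTL, 1245 ± 323 in KO CTL, 849 ± 121 in WT RUN and 773 ± 102 in KO RUN (SD, n = 4 each). The sedentary libraries of both genotypes thus spread more widely than the running ones.

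Mobp encodes a small basic protein of compact central myelin. Its levels were 78.4, 97.8, 57.8 and 55.4 TPM in WT CTL 1 to 4 and 73.5, 67.3, 109 and 122 TPM in KO CTL 5 to 8. In WT RUN 9 to 12 they were 80.7, 101, 57.5 and 72.4 TPM, and in KO RUN 13 to 16 they were 63.7, 65.6, 79.9 and 55.1 TPM. KO CTL 7 and 8 were above all KO RUN libraries, while KO CTL 5 and 6 lay within their range.

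Mal encodes a proteolipid of myelin membrane rafts. Its levels were 55.6, 67.1, 42.8 and 40.1 TPM in WT CTL and 48.3, 47.2, 70.7 and 78.3 TPM in KO CTL, in the order of the replicate numbers. They were 47.9, 66.3, 44.8 and 49.6 TPM in WT RUN and 44.2, 40.3, 54.5 and 44.9 TPM in KO RUN. The same pair of KO CTL libraries, 7 and 8, was high. Cldn11, the claudin that seals the myelin layers, ranged from 38.5 to 55.6 TPM in WT CTL, 42.2 to 81.8 in KO CTL, 44.8 to 82.2 in WT RUN and 42.9 to 53.9 in KO RUN, with the highest values in WT RUN 10 and KO CTL 8.

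Mog, the glycoprotein on the outer face of the sheath, ranged from 15.9 to 24.7 TPM in WT CTL, 17.8 to 31.5 in KO CTL, 17.6 to 24.6 in WT RUN and 16.8 to 18.5 in KO RUN. The KO RUN libraries were close together, with an SD of 0.757 TPM around a mean of 17.8. Mag, the adhesion protein facing the axon, ranged from 32.6 to 50.8 TPM in WT CTL, 36.1 to 75.1 in KO CTL, 43.3 to 68.9 in WT RUN and 37.1 to 49.0 in KO RUN. KO CTL 8 alone gave the top value of both genes in that group.

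Cnp encodes the phosphodiesterase of the cytoplasmic channels of myelin and is already expressed in younger oligodendrocytes. Its levels were 132, 158, 115 and 102 TPM in WT CTL 1 to 4 and 132, 154, 176 and 181 TPM in KO CTL 5 to 8. They were 119, 164, 119.6 and 144 TPM in WT RUN 9 to 12 and 120.1, 127, 139 and 126 TPM in KO RUN 13 to 16. Of the KO CTL libraries only replicate 5 lay within the KO RUN range, and 3 of 4 lay above it.

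Opalin encodes a transmembrane glycoprotein of mature oligodendrocytes. Its levels were 19.2, 22.9, 13.5 and 13.1 TPM in WT CTL 1 to 4 and 17.5, 15.2, 23.8 and 27.0 TPM in KO CTL 5 to 8. They were 15.5, 23.1, 16.4 and 16.4 TPM in WT RUN 9 to 12 and 11.4, 20.3, 11.6 and 16.3 TPM in KO RUN 13 to 16. KO RUN 13 and 15 held the lowest values of all 16 libraries, and KO RUN 14 was above KO CTL 5 and 6.

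Ermn encodes ermin, an actin-binding protein of late myelination. Its levels were 18.7, 24.8, 21.9 and 14.5 TPM in WT CTL 1 to 4 and 18.8, 19.0, 25.9 and 28.5 TPM in KO CTL 5 to 8. They were 19.5, 32.4, 21.6 and 27.4 TPM in WT RUN 9 to 12 and 19.4, 28.6, 25.4 and 28.0 TPM in KO RUN 13 to 16. Here the KO RUN libraries covered nearly the same range as the KO CTL libraries. The plot of levels by library shows these values for all 9 genes.

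**Figure D1:**
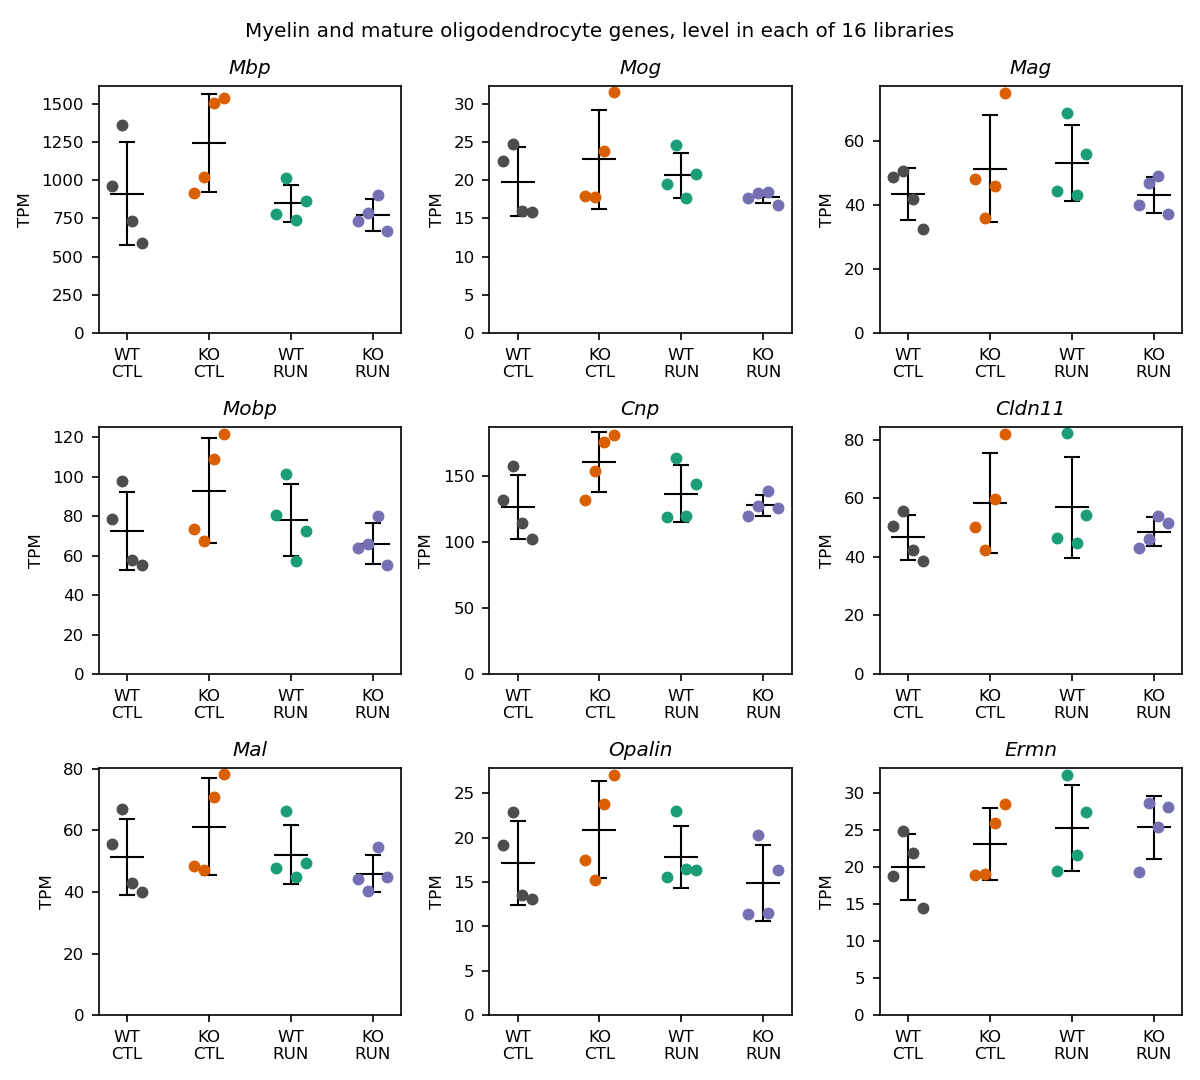
TPM of each of the 9 genes (vertical axes from 0, one panel per gene) in the 16 libraries, 4 points per group in the order of the replicate numbers, with the mean as a bar and the SD as whiskers. In the Mbp panel the 4 KO RUN points (665 to 906 TPM) lie below the 4 KO CTL points (917 to 1539.9 TPM), and in the other panels these groups overlap.

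Set A asked what 12 days of running did in mice without p16. Of the 9 genes, 8 had a lower estimate in KO RUN than in KO CTL and 5 passed an unadjusted p of 0.05 in the limma fit, all lower: Mbp, Cnp, Mobp, Mal and Opalin. Over all 17317 genes tested, 7.76% were lower and 10.7% were higher at that threshold. Differences are of log2(TPM + 0.1) after the libraries were scaled to a common median ratio. None of the 9 had an adjusted p under 0.05, which 3 genes reached in all (0.0173%). The median log2 fold change of the 9 was -0.39 against 0.018 over all genes tested.

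The largest difference was that of Mbp, with a log2 fold change of -0.72 (SE 0.20, 95% interval -1.17 to -0.28), which is 0.605 times the KO CTL level (adjusted p = 0.167). An exact permutation test of its log2 values gave p = 0.0286, two-sided, the smallest that 35 splits of these 8 libraries allow. Its groups did not overlap, as for 10.4% of all genes tested. Cnp differed by -0.39 (SE 0.12, adjusted p = 0.192) with an exact permutation p of 0.0571.

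Mobp differed by -0.52 on the log2 scale (SE 0.21, adjusted p = 0.241), Opalin by -0.56 (SE 0.24, adjusted p = 0.267) and Mal by -0.45 (SE 0.18, adjusted p = 0.251). The exact permutation p was 0.114 for each of these 3 genes. Mog (-0.38, 95% interval -0.78 to 0.020), Cldn11 (-0.29, -0.70 to 0.12) and Mag (-0.27, -0.71 to 0.17) did not pass. Ermn had an estimate of 0.078 with an interval from -0.33 to 0.49.

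The calls for Mbp and Cnp held when any 1 of the 8 libraries was left out, and without KO CTL 5 Cnp also had an adjusted p under 0.05, as did 178 genes in all (1.03%) in that fit. The calls for Mobp and Mal were lost without KO CTL 7, KO CTL 8, KO RUN 13, KO RUN 14 or KO RUN 16, and the call for Opalin without KO CTL 7, KO CTL 8, KO RUN 13, KO RUN 15 or KO RUN 16. Mog and Cldn11 were gained without KO CTL 6, for 7 of the 9, with 5.08% of all genes lower. Mog was gained without KO CTL 5, for 6 of the 9, with 11.4% of all genes lower. Without KO CTL 7 and 8, the KO CTL libraries lowest in granule neuron markers, 1 of the 9 still passed, Mbp at -0.37, and the median was -0.11, with 4.76% of all genes lower. Cnp was then at -0.20, Opalin at -0.22, Mobp at -0.15, Mal at -0.11, Mog at -0.049, Mag at -0.00014, Cldn11 at 0.031 and Ermn at 0.36. Without KO CTL 6 and 7, the KO CTL libraries lowest in nuclear RNA, 3 passed (Mbp at -0.65, Mobp at -0.55 and Mag at -0.50) and the median was -0.45, with 3.57% of all genes lower.

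Several marker lists moved with this comparison. Granule neuron markers had a median log2 difference of 0.30 in Set A with 2 of 10 called higher, nuclear noncoding RNAs of 1.06 with 2 of 8 called higher, and endothelial markers of 0.50 with 2 of 8 called higher. Astrocyte markers had a median of -0.27 with 3 of 10 called lower, microglia markers of -0.30 with 3 of 10 lower, and CA1 and CA2 markers of -0.42 with 2 of 10 lower. Choroid plexus markers had a median of -0.38, with 8 of 9 below 0 and 0 called. The shares of all genes called in this fit are those given above, 7.76% lower and 10.7% higher. These shifts rested on a few KO CTL libraries. Without KO CTL 6 and 7 the median was 0.00080 for astrocyte markers, -0.048 for microglia markers, 0.018 for endothelial markers and -0.054 for nuclear noncoding RNAs, whereas that of granule neuron markers was 0.52 and that of CA1 and CA2 markers -0.71. Without KO CTL 7 and 8 granule neuron markers were at -0.056 and CA1 and CA2 markers at -0.12, while nuclear noncoding RNAs stayed at 0.89. In that fit astrocyte markers stayed at -0.25, microglia markers at -0.32 and endothelial markers at 0.52, while choroid plexus markers were at 0.027. Summed granule neuron markers ranged from 609.6 to 1262 TPM in KO CTL and from 1106 to 1621 TPM in KO RUN, and no marker of that list was at 0 in every library. Summed nuclear noncoding RNAs ranged from 479 to 2091 TPM in KO CTL and from 1939 to 2316 TPM in KO RUN. The part of these lists in the difference of the myelin genes was not tested beyond the fits without libraries given above. In bulk tissue, fewer oligodendrocytes, less message per oligodendrocyte and a different amount of myelinated border tissue in the dissection cannot be told apart.

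Scaling mattered to the number of calls. In TPM as deposited, without the scaling between libraries, Set A had 709 genes lower and 2500 higher in place of 1343 lower and 1857 higher, and 3 of the 9 myelin genes, Mbp, Mobp and Cnp, were called lower. After quantile normalization 1541 genes were lower and 1538 higher, and 6 of the 9 were lower, Mog being added. The signs of all 9 estimates were the same under these scalings.

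**Figure D2:**
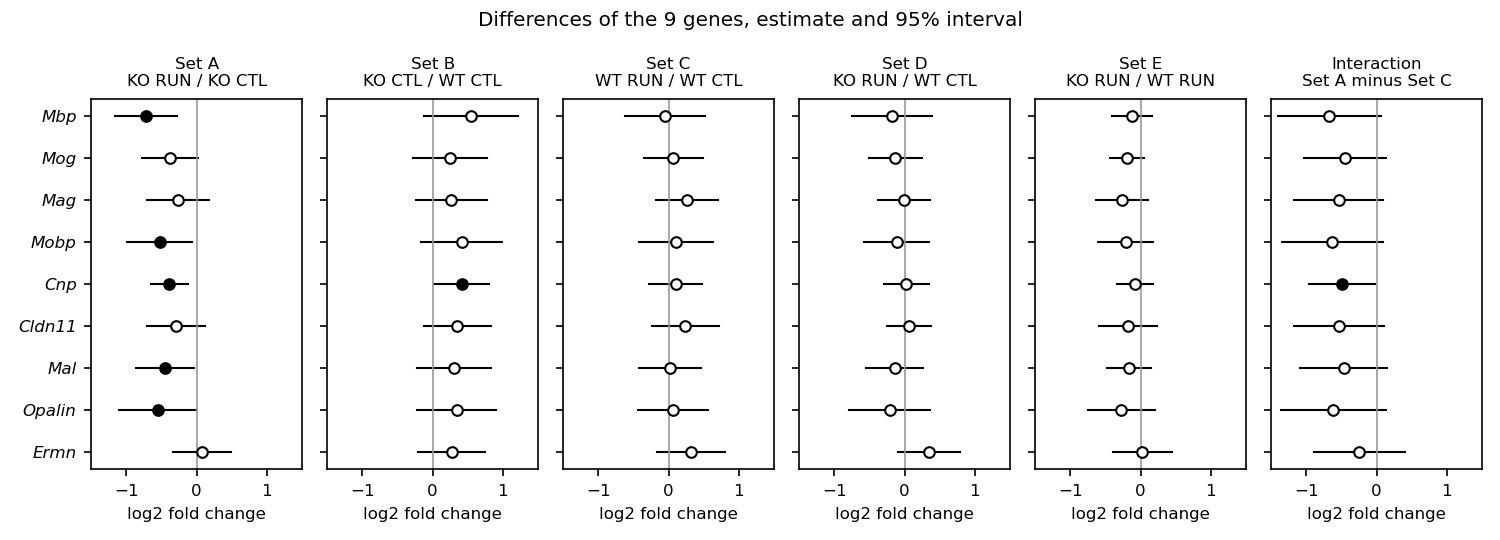
Log2 fold change of each of the 9 genes (rows) in Sets A to E and in the interaction (horizontal axes, log2 scale), with the 95% interval of the limma fit as a line; filled points have an unadjusted p under 0.05. In Set A 5 points are filled, all below 0; in Set B and in the interaction only Cnp is filled, and in Sets C, D and E no point is.

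Set B asked what the loss of p16 did in sedentary mice. All 9 genes had a higher estimate in KO CTL than in WT CTL, from 0.25 for Mog to 0.54 for Mbp, with a median log2 fold change of 0.34 against -0.012 over all genes. This median was 0.18 without KO CTL 8 and 0.21 without WT CTL 4. Cnp, at 0.41 (SE 0.17, adjusted p = 0.624), was the only one to pass the unadjusted threshold, at which 3.05% of all genes were higher and 3.59% lower. Its exact permutation p was 0.143. No gene of the 17317 had an adjusted p under 0.05 (0%), against 1151 at the unadjusted threshold, and the groups of none of the 9 stood clear of each other, against 2.69% of all genes. The interval for Mbp ran from -0.12 to 1.21.

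The call for Cnp was lost without WT CTL 1, WT CTL 3, WT CTL 4, KO CTL 6, KO CTL 7 or KO CTL 8. Without KO CTL 6 Cldn11 passed in its place, with 1.78% of all genes higher. Without the 3 libraries lowest in granule neuron markers the median of the 9 was 0.14, and without the 3 lowest in nuclear RNA it was 0.57; no member passed in either fit. WT CTL 2, the sedentary wild-type library that is low in both lists, had the highest WT CTL level of all 9 genes, and without it 3 of the 9 passed, in a fit in which 7.53% of all genes were higher and 9.96% lower. Nuclear noncoding RNAs had a median difference of -0.89 in Set B, granule neuron markers of -0.15 with 0 of 10 called, and CA1 and CA2 markers of 0.46 with 2 of 10 called higher. Markers of other cells also had higher estimates in KO CTL, 9 of 10 for astrocytes (median 0.26, with S100b and Gfap called), 10 of 10 for microglia (0.20, with Tmem119 and P2ry12 called), 8 of 8 for ependyma (0.56, with Rarres2 called), 8 of 9 for choroid plexus (0.40, 0 called) and 9 of 10 for thalamus and habenula (0.21, with Rora called), while 8 of 8 endothelial markers had lower ones (-0.28, 0 called). Without the 3 libraries lowest in nuclear RNA, medians were 0.11 for astrocyte, 0.025 for microglia, 0.011 for choroid plexus and 0.11 for endothelial markers. Those of nuclear noncoding RNAs, granule neuron, ependyma, and CA1 and CA2 markers were then 0.078, -0.58, 1.18 and 0.97. Without the 3 lowest in granule neuron markers, endothelial markers were at -0.36, microglia markers at 0.31 and ependyma markers at 0.26. The part of these lists in the difference was not tested further.

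The interaction compared the effect of running in KO with that in WT mice, over all 16 libraries. All 9 estimates were below 0, from -0.67 for Mbp to -0.24 for Ermn, with a median of -0.53 against 0.018 over all genes. Cnp passed the unadjusted threshold at -0.49 (SE 0.22, adjusted p = 0.798), with 2.47% of all genes lower and 3.00% higher at that threshold and 0 of 17317 (0%) after adjustment, against 947 before it. The interval of Mbp ran from -1.41 to 0.063 and that of Mobp from -1.34 to 0.085. In the same fit the median was -0.68 for CA1 and CA2 markers, with 3 of 10 called lower, -0.24 for astrocyte and -0.21 for microglia markers, with all 10 estimates of each below 0, and 0.30 for granule neuron markers and 0.87 for nuclear noncoding RNAs, with 10 of 10 and 8 of 8 above 0. Endothelial markers had a median of 0.38 with 8 of 8 above 0, ependyma markers of -0.35 with 6 of 8 below 0, and choroid plexus markers of -0.21. No marker of these lists other than the CA1 and CA2 list was called, and their part in the interaction was not tested. Without the 3 libraries lowest in nuclear RNA, medians were -0.018 for endothelial, -0.031 for microglia, -0.14 for astrocyte and 0.28 for choroid plexus markers. Those of nuclear noncoding RNAs, granule neuron, ependyma, and CA1 and CA2 markers were then -0.087, 0.65, -0.74 and -1.14. Without the 3 lowest in granule neuron markers, endothelial markers were at 0.47, granule ones at 0.13 and CA1 and CA2 markers at -0.54. The number of the 9 that passed moved with single libraries. It was 6 without WT CTL 2, 3 without KO CTL 5 or KO CTL 6 and 2 without WT RUN 11, where 5.66%, 4.60%, 1.99% and 2.73% of all genes, in the same order, were lower. It was 0 without WT CTL 3, WT CTL 4, KO CTL 7, KO CTL 8, WT RUN 10, WT RUN 12, KO RUN 13 or KO RUN 16, and 7 without the 3 libraries lowest in nuclear RNA (median -0.77, with 3.49% of all genes lower). Without the 3 lowest in granule neuron markers it was 1, with a median of -0.37 and 3.90% of all genes lower.

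Sets C, D and E gave no call among the 9, at thresholds that 4.82%, 8.66% and 3.87% of all genes passed in either direction. In Set C, running in wild-type mice, estimates ran from -0.054 for Mbp to 0.32 for Ermn with a median of 0.10. In Set D, running KO against sedentary WT mice, they ran from -0.21 for Opalin to 0.35 for Ermn with a median of -0.11. In Set E, KO against WT among runners, they ran from -0.28 for Opalin to 0.026 for Ermn with a median of -0.18. No gene of the 17317 passed adjustment in Set C (0%) or Set D (0%) and 1 did in Set E (0.00577%); unadjusted, 834, 1499 and 670 did. The intervals were wide: that of Mbp was -0.62 to 0.51 in Set C, -0.75 to 0.39 in Set D and -0.41 to 0.16 in Set E, and its Set A estimate lies within the interval of Set D. Without WT CTL 2, the median was 0.24 in Set C and 0.072 in Set D. Ermn passed in Set D without WT CTL 2 or without KO RUN 13, where 5.89% and 4.67% of all genes were higher. Without WT RUN 10 the median of the 9 was -0.032 in Set C and -0.035 in Set E. The fits without WT CTL 3 and WT CTL 4 gave medians of -0.0020 and -0.024 in Set C and -0.22 and -0.24 in Set D, and the fit without KO RUN 16 gave -0.021 in Set D. Without WT RUN 11 the median of Set E was -0.28 and 2 of the 9 passed (Mog and Mobp, with 1.46% of all genes lower), and without KO RUN 14 Opalin passed (1.74% lower).

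The members were also set against each other within libraries. Relative to the mean log2 level of the other 8, Ermn was at -1.77 ± 0.076 in KO CTL and at -1.25 ± 0.22 in KO RUN (SD, n = 4 each), with ranges of -1.87 to -1.69 and -1.51 to -1.02. In WT CTL it was at -1.68 ± 0.25 and in WT RUN at -1.46 ± 0.15. Mbp went the other way, at 4.68 ± 0.15 above the other 8 in KO CTL and 4.30 ± 0.14 in KO RUN (4.51 to 4.85 and 4.12 to 4.45). Opalin was the most variable against the others in KO RUN, with an SD of 0.44 and a range from -2.62 to -1.66. These contrasts between members were chosen after their values were seen and were not tested.

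Across single libraries the members rose and fell together. Over the 16 libraries the 36 pairs of members had a median Pearson r of 0.81, from 0.52 (Mbp and Ermn) to 0.96 (Mobp and Mal), and after subtraction of the group means the median was 0.83. These values are descriptions; the points share library, depth and dissection. Without Ermn the lowest pair was at 0.71. KO CTL 8 held the highest value of 7 of the 9 genes, and WT RUN 10 that of Cldn11 and Ermn. WT CTL 4 held the lowest value of 7 of the 9. WT CTL 2 was among the 4 highest libraries for 8 of the 9 genes, WT RUN 10 also for 8 and KO CTL 7 for 7, so each of the 3 groups other than KO RUN had a library rich in myelin messages.

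Within groups these genes varied more than most. The pooled SD of log2 levels within groups was 0.38 for Mbp and 0.39 for Opalin, and 0.24 for Cnp, the most even of the 9, against a median of 0.13 over the 10094 genes whose mean reached 10 TPM. Between 87.0% (Cnp) and 96.2% (Opalin) of those genes had a smaller spread. The map of deviations by library shows this pattern next to the marker lists.

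**Figure D3:**
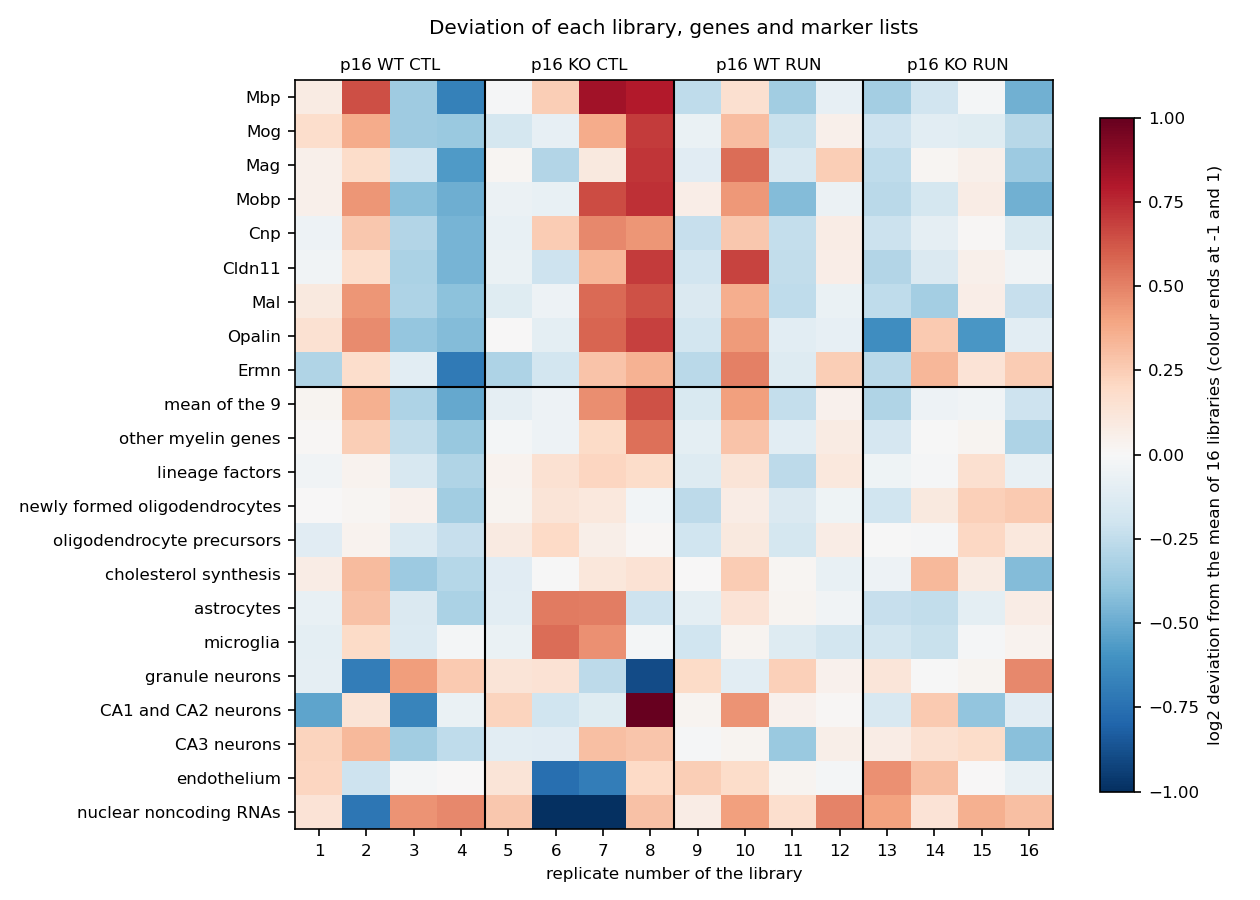
Log2 deviation from the mean of the 16 libraries (colour, red above and blue below, ending at -1 and 1) for the 9 genes (upper rows) and for their mean and 12 marker lists (lower rows), with libraries as columns in the order of the replicate numbers and lines between groups. KO CTL 7, KO CTL 8, WT RUN 10 and WT CTL 2 are red in nearly all upper rows, and WT CTL 3 and WT CTL 4 are blue.

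The mean deviation of the 9 genes ran against that of the granule neuron markers, with r = -0.86 and rho = -0.90 over 16 libraries, -0.87 after subtraction of group means and -0.80 over the 14 libraries left without WT CTL 2 and KO CTL 8. All lists share the library, its depth and its dissection, and TPM shares sum to a constant. In KO CTL 8, the library highest in the 9 genes (0.64), the granule markers were at -0.89, with Prox1 at 58.1 TPM against 122 to 187 in KO RUN, while the CA1 genes Wfs1 (76.8 TPM) and Fibcd1 (63.9 TPM) were at their highest. The summed CA1 and CA2 list in that library was 771 TPM, within the range of 683 to 939 TPM over all libraries. In WT CTL 4, the lowest in the 9 genes (-0.51), the granule markers were at 0.26. The correlation was 0.72 with CA3 markers, 0.44 with astrocyte markers and -0.38 with nuclear noncoding RNAs. After subtraction of group means these values were 0.76, 0.28 and -0.17. The correlation with CA1 and CA2 markers was 0.59, and 0.25 over the 14 libraries left without WT CTL 3 and KO CTL 8. In the scatter of myelin genes against granule neuron markers, the KO RUN libraries spread less in the myelin genes than the other groups did.

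**Figure D4:**
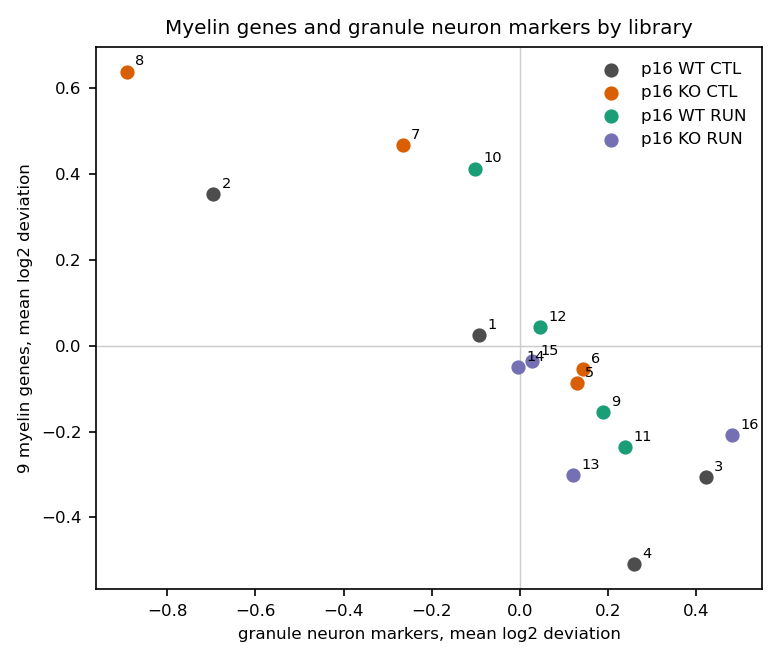
Mean log2 deviation of the 9 myelin genes (vertical axis) against that of 10 granule neuron markers (horizontal axis), 1 point per library, coloured by group and labelled with the replicate number. KO CTL 8, KO CTL 7 and WT CTL 2 lie at upper left and the 4 KO RUN libraries lie between -0.30 and -0.04 on the vertical axis.

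Other genes of the myelin sheath and of mature oligodendrocytes, a list of 37 symbols of which 36 could be tested, were counted in the same fits. In Set A, 14 of 36 were lower and 1 was higher at the unadjusted threshold, against 7.76% and 10.7% of all genes, and the median was -0.27. The 4 with the smallest p were Evi2a (-0.62), the carbonic anhydrase gene Car2 (-0.48), the septin gene Sept4 (-0.48) and Prr18 (-0.61), and none had an adjusted p under 0.05. The 1 higher gene was Nfasc, which encodes neurofascin of glia and of neurons (0.29). In Set B 5 of 36 were higher and none lower, against 3.05% and 3.59% of all genes, led by the gelsolin gene Gsn (0.37), Apod (0.80), Car2 (0.39) and Evi2a (0.54). In Sets C and E none was called, in Set D 1 (Nfasc, 0.20 higher), and in the interaction 6 were lower, against 2.47% of all genes. Without the libraries lowest in granule markers 4 were lower and 1 higher in Set A, 7 were higher in Set B and 5 were lower in the interaction, against 4.76% lower, 7.40% higher, 3.68% higher and 3.90% lower of all genes. Without those lowest in nuclear RNA 8 were lower in Set A, 10 were higher in Set B and 20 were lower in the interaction, against 3.57% lower, 3.15% higher and 3.49% lower of all genes. The Set A median of this list was -0.097 without the libraries lowest in granule markers and -0.33 without those lowest in nuclear RNA.

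Transcription factors of the lineage included Olig1, Olig2, Sox10, Sox8, Myrf and Nkx6-2. In Set A 2 of 10 were lower, Sox8 (-0.35) and Sox10 (-0.29), and in Set B 4 of 10 were higher, Olig2 (0.30), Sox10 (0.34), Olig1 (0.33) and Zfp488 (0.41). The all-gene shares in these sets are the same as for the list before. In Set A, without the libraries lowest in nuclear RNA, 1 was higher and 1 lower (median -0.096, from -0.15). All-gene shares in that fit were 4.93% higher and 3.57% lower. Without those lowest in granule markers 1 was lower (median -0.051), against 4.76% of all genes. In Set B 1 was higher and 1 lower without the libraries lowest in nuclear RNA, against 3.15% higher and 3.52% lower of all genes. Without those lowest in granule markers 1 was higher, against 3.68% of all genes. In Set D, where 4.91% of all genes were higher, Olig2 was higher (0.28), in Set E, where 2.10% were higher and 1.77% lower, Tcf7l2 was higher (0.46) and Sox8 lower (-0.17), and in the interaction Sox8 (-0.31) and Sox10 (-0.38) were lower. Tcf7l2 is also in a list of thalamus and habenula markers, which had a median of 0.35 in Set E with 8 of 10 above 0 and 2 called higher, Tcf7l2 and Calb2. Sox10, which acts through the whole lineage, stood at 26.2 ± 1.75 TPM in KO CTL, 22.5 ± 2.32 in KO RUN, 21.7 ± 2.94 in WT CTL and 23.4 ± 2.32 in WT RUN (SD, n = 4 each). Markers of newly formed oligodendrocytes gave no call in Set A among 9 tested, with a median of 0.031, and 1 in Set B, Gpr17 (0.56). Of 12 precursor markers, Emid1 was higher (0.38) and C1ql1 lower (-0.20) in Set A, against 10.7% and 7.76% of all genes, and Neu4 (0.46) and Gpr17 were higher in Set B. In Set D Emid1 (0.42), Vcan (0.39) and Gpr17 (0.52) were higher, and in Set E Gpr17 (0.43), against 4.91% and 2.10% of all genes. Without the libraries lowest in granule markers 4 of the 12 were higher in Set B, against 3.68% of all genes. Of 20 genes of cholesterol synthesis and uptake, which supply the main lipid of myelin, none was called in any set, with a median of -0.062 in Set A and 0.10 in Set B. Over the libraries the mean of the 9 genes followed the other myelin genes (r = 0.96) and the lineage factors (r = 0.78) more closely than precursor markers (0.43) or newly formed oligodendrocyte markers (0.36). Without WT CTL 4 and WT RUN 9 the precursor and newly formed values were 0.24 and 0.089. For the other myelin genes r was 0.93 without WT CTL 4 and KO CTL 8, and for the lineage factors 0.73 without WT CTL 4 and WT RUN 11.

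Among 14429 genes whose mean reached 1 TPM, the 10 genes outside the 9 whose pattern over the 16 libraries was most like theirs included Tspan2 (r = 0.94), Trf (0.94), Map4 (0.93), Prr18 (0.93), Napg (0.92), Litaf (0.92), Pnkd (0.92), Manea (0.92) and Nkx6-2 (0.91). Tspan2, Trf and Prr18 are in the list of other myelin genes and Nkx6-2 is in that of lineage factors. Of 35 listed myelin genes at this level, 45.7% had an r over 0.8, against 2.10% of all genes compared, which is a description of these libraries.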

How the data were processed

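Total RNA of dissected dentate gyrus was made into libraries with a Universal Plus mRNA-Seq kit, which keeps the strand. The authors had them sequenced in pairs, base-called with bcl2fastq 2.20, masked for adapters with Cutadapt 1.11 and trimmed with ERNE. Alignment to mm10 with STAR and quantification with StringTie were done by the authors. Versions of ERNE, STAR and StringTie are not given in the sources used here. The deposited tables give TPM, FPKM and coverage per gene; the authors' own tests used counts, which are not used here. The FPKM values and the coverage signal, as the authors deposited them, entered only as alternatives.

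Repeated entries of a name were added up. Each library was divided by its median ratio to the geometric mean library, taken over the 13226 genes that reached 1 TPM in all 16. The 17317 genes averaging 0.1 TPM or more entered limma 3.58.1 (R 4.3.3, trended prior variance) as log2(scaled TPM + 0.1), with the 8 libraries of each pair of groups or all 16 for the interaction, followed by Benjamini-Hochberg adjustment across these genes. Fold changes on this scale understate changes of low genes. Both the unadjusted threshold of 0.05 that the study used and the adjusted one were counted. Differences of single members were also tested by exact permutation, two-sided. The paper gives an average depth in reads per sample, but the depth of each library is unknown, so no counting error is given.

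The 9 genes, the 15 marker lists and the tests were chosen with earlier results of these data known. All 9 genes are named; from each list up to 4 genes of smallest unadjusted p, and in addition genes that describe a library that stands apart (Prox1, Wfs1, Fibcd1, Ttr) and Nfasc, are named after their values were seen. 1 gene that the rule names is not reported here. Alternatives changed the filter, pseudocount, scaling, unit, variance model, libraries in the fit and treatment of repeated names, and left out each library in turn. Coverage in place of TPM and the removal of 3 libraries low in nuclear RNA or in granule neuron markers were added after seeing the data.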

Additional observations from a re-analysis of the deposited data

Results flagged for a closer look

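Opalin in WT RUN replicate 10, at 23.1 TPM, stood away from the other 3 WT RUN libraries, which lay between 15.5 and 16.4 TPM. Of 36 combinations of gene and group examined in this way it was the only one to stand out, and chance alone gives about 1 in 20. Set C, in which this library enters, had an Opalin log2 fold change of 0.062.

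The effect of running on Cnp differed between KO and WT mice by -0.49 on the log2 scale, past the unadjusted threshold of 0.05 but with an adjusted p = 0.798 in limma. Cnp was lower in KO RUN than in KO CTL by an estimate of -0.39 and in WT RUN against WT CTL the estimate was 0.10. The interaction call was lost when WT CTL 3, WT CTL 4, KO CTL 6, KO CTL 7, KO CTL 8, WT RUN 10, WT RUN 12, KO RUN 13, KO RUN 14 or KO RUN 16 was left out.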

How the results depend on the processing

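No paired analysis was possible because each replicate number belongs to a single group. With no filter on low values, or without a variance trend, 2 of the 9 genes passed the unadjusted threshold in Set A (5.54% and 6.23% of all genes lower) and 0 in Set B and in the interaction. In TPM as deposited 3 passed in Set A (4.09% lower), and with all 16 libraries in one fit 2 passed in Set B (5.44% higher, 7.31% lower). Without the 3 libraries lowest in nuclear RNA the number was 3 in Set A, none (0) in Set B, 1 in Set D and 7 in the interaction; without the 3 lowest in granule neuron markers Set A and Set D each had 1 and Set B had 0. Leaving out each library in turn gave 2 to 7 in Set A (0 to 1 after adjustment), 0 to 3 in Set B, 0 to 1 in Set D, 0 to 2 in Set E and 0 to 6 in the interaction. The 7 in Set A came without KO CTL 6, where 5.08% of all genes were lower. The 3 in Set B and the 6 in the interaction came without WT CTL 2 (7.53% higher and 5.66% lower). The 2 in Set E came without WT RUN 11 (1.46% lower). The causes were not tested, beyond fewer libraries entering these fits.

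Estimates near 0 changed sign. In Set A, Cldn11 was at 0.031 without the libraries lowest in granule markers, and Ermn ran from -0.036 to 0.21 over the fits without 1 library. In Sets C and D the removal of the libraries lowest in nuclear RNA or in granule markers removes WT CTL 2, and Mbp in Set C was then at 0.19, and in Set D Mbp was at 0.060, Mog at 0.0080, Mag at 0.10, Mobp at 0.072 and Mal at 0.018. Mag in Set D was at 0.0019 in TPM as deposited and at 0.0021 after quantile normalization. Without 1 library at a time, Set C gave -0.25 to 0.19 for Mbp, -0.044 to 0.20 for Mog, -0.040 to 0.29 for Mobp, -0.0077 to 0.24 for Cnp, -0.11 to 0.18 for Mal and -0.076 to 0.24 for Opalin. Set D gave -0.38 to 0.060 for Mbp, -0.24 to 0.0080 for Mog, -0.15 to 0.10 for Mag, -0.24 to 0.072 for Mobp, -0.085 to 0.16 for Cnp, -0.043 to 0.17 for Cldn11 and -0.27 to 0.018 for Mal, and Set E gave -0.15 to 0.023 for Cnp, -0.29 to 0.018 for Cldn11 and -0.094 to 0.16 for Ermn. No estimate of Set B or of the interaction changed sign in any fit run. Of the alternatives for single genes, 1044 kept both sign and side of the threshold, 49 changed sign, 52 kept the sign but lost the unadjusted threshold and 34 gained it. Depth in reads is unknown for single libraries, and 4 libraries a group limit every interval given.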
